A study of Mus musculus with 5 samples.

Results

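The enzymes of glycolysis Hk1, Hk2, Gpi1, Pfkp, Pfkl, Aldoa, Tpi1, Eno1 and Ldha and the transcription factor gene Hif1a were examined for Runx3-bound and H3K4me1-marked regions in IL-2-activated CD8-TC (CD8+ T cells). The 10 genes were chosen by name, out of 22350 protein-coding genes of the GENCODE vM1 annotation. A region was counted at a gene when it shared at least 1 bp with the gene body extended by 10 kb on each side, on the mouse genome build mm9. By this rule 7 of the 9135 Runx3-bound regions and 19 of the 18992 H3K4me1-marked regions lay at the 10 genes.

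The cells were splenic CD8+ T cells of ICR mice, positively selected with beads, activated through the TCR by anti-CD3e and anti-CD28 antibodies for 2 days and grown in IL-2 (100 u/ml) for another 4 days. Chromatin was precipitated with an in-house polyclonal anti-Runx3 antibody (2 libraries), with a monoclonal anti-H3K4me1 antibody (1 library in the labels) or with non-immune rabbit serum (NIS, 2 control libraries). Runx3 is a RUNX family transcription factor with a known role in cytotoxic T cells. H3K4me1 is histone H3 with a single methyl group on a lysine of its tail, a mark that is abundant at enhancers. All 5 libraries came from the same kind of activated wild type culture, so the lists hold no resting cells and no Runx3-deficient cells. These 5 libraries do not measure expression. Peaks had been called 1 time per antibody on joined reads and were deposited as start and end positions without a score. Hence no value below has replicate error, no test between conditions was possible, the depth behind a region is unknown, and the intervals given (95%, Wilson) cover counting error among regions or genes only.

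Activated T cells turn glucose into lactate at a high rate even when oxygen is present, and IL-2 signalling is known to sustain this state. Hexokinases trap glucose in the cell as glucose 6-phosphate, phosphofructokinases catalyse the committed step of the pathway, and lactate dehydrogenase regenerates the NAD+ that the pathway consumes. HIF-1α, the protein of Hif1a, pairs with ARNT at hypoxia response elements and is a known activator of many genes of the pathway, in activated T cells as well as under hypoxia. RUNX proteins bind the canonical RUNX motif, of which 4 variants were searched on both strands, namely TGTGGT, its variant ending in C which is TGTGGC, the variant TGCGGT with C in the third place, and the variant TGCGGC with both changes.

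The Runx3-bound regions at the glycolysis genes are shown as sequence, read from mm9 on the plus strand and written 5′ to 3′. Capitals mark RUNX motifs, and a motif on the minus strand appears as its reverse complement (ACCACA for the variant TGTGGT, for example). The upstream region of Hk2 and the wider regions of Hk2, Pfkp and Eno1 are shown by their central bases, up to 300:
Hk2 upstream (chr6:82725324-82725623): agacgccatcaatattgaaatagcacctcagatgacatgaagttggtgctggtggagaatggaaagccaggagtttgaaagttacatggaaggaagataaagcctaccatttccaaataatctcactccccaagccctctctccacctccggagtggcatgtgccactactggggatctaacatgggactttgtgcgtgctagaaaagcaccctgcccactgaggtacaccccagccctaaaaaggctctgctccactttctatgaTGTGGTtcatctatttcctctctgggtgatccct
Hk2 intron 4 (chr6:82694541-82694840): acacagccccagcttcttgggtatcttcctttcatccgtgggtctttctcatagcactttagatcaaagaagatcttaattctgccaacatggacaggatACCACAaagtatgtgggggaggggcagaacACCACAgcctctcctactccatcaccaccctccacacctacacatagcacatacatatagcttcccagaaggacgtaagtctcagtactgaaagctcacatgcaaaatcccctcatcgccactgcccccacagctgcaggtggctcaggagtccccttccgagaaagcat
Pfkp intron 2 (chr13:6634495-6634794): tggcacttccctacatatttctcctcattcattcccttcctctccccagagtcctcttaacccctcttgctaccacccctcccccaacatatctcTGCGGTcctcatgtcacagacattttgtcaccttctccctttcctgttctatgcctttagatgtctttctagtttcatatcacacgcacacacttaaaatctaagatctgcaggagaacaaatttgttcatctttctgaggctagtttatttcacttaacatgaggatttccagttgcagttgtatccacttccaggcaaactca
Eno1 intron 1 and exon 2 (chr4:149613355-149613654): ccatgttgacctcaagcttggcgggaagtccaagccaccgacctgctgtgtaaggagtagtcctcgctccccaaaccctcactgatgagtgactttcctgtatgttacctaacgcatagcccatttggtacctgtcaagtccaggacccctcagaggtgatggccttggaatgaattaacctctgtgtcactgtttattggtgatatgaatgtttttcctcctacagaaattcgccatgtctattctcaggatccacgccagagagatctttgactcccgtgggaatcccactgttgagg

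The remaining regions were added after their values were seen, so that all 7 can be compared. A stretch of 113 bases around the closest RUNX pair of the wide Eno1 region was added too, since its centre held no RUNX motif:
Eno1 intron 2, RUNX pair (chr4:149613847-149613959): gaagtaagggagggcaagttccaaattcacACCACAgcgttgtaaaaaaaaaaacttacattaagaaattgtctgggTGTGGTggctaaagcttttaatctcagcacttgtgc
Eno1 intron 4 (chr4:149616855-149617154): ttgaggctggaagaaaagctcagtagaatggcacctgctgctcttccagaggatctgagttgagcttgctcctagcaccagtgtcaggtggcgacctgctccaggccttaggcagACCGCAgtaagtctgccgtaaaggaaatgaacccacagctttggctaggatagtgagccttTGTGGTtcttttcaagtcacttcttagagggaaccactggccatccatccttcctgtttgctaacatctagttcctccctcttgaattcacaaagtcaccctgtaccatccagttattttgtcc
Pfkp intron 3 (chr13:6623916-6624194): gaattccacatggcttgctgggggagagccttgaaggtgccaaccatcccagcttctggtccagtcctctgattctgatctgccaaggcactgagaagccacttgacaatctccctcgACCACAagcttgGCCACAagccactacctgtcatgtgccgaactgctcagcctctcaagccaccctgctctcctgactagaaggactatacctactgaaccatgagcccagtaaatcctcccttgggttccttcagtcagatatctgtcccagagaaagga
Pfkl upstream (chr10:77481576-77481835): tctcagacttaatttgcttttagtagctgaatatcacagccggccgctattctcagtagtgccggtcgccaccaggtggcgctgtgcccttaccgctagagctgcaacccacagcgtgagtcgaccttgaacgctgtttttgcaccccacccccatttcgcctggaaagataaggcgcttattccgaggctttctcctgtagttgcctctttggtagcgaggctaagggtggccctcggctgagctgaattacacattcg

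Runx3-bound regions were found at Hk2, Pfkp and Eno1 (2 each) and at Pfkl (1), that is at 4 of the 10 genes. Among all protein-coding genes, 27.5% had at least 1 such region in the same window, so that the 4 of 10 (40%, interval 16.8 to 68.7%) lay within counting error of the background. At least 2 regions were found at 3 of the 10 genes, compared to 9.20% of all protein-coding genes. H3K4me1-marked regions were found at 8 of the 10 genes (80%, interval 49.0 to 94.3%), compared to 32.9% of all protein-coding genes. The genes were picked with results of these lists known. The differences from all protein-coding genes, for Runx3 as for H3K4me1, are therefore descriptions and were not tested. Pfkp had 6 H3K4me1-marked regions, Hk2 had 5, Aldoa and Ldha had 2 each, and Hk1, Gpi1, Eno1 and Hif1a had 1 each. A Runx3-bound region that itself overlapped H3K4me1 was found at Hk2, Pfkp and Eno1, that is at 3 of the 10 genes compared to 13.7% of all. H3K4me1 without Runx3 was found at 5 of the 10 (Hk1, Gpi1, Aldoa, Ldha and Hif1a), compared to 12.9% of all. Tpi1 had neither, as did 59.6% of all protein-coding genes.

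**Figure D1:**
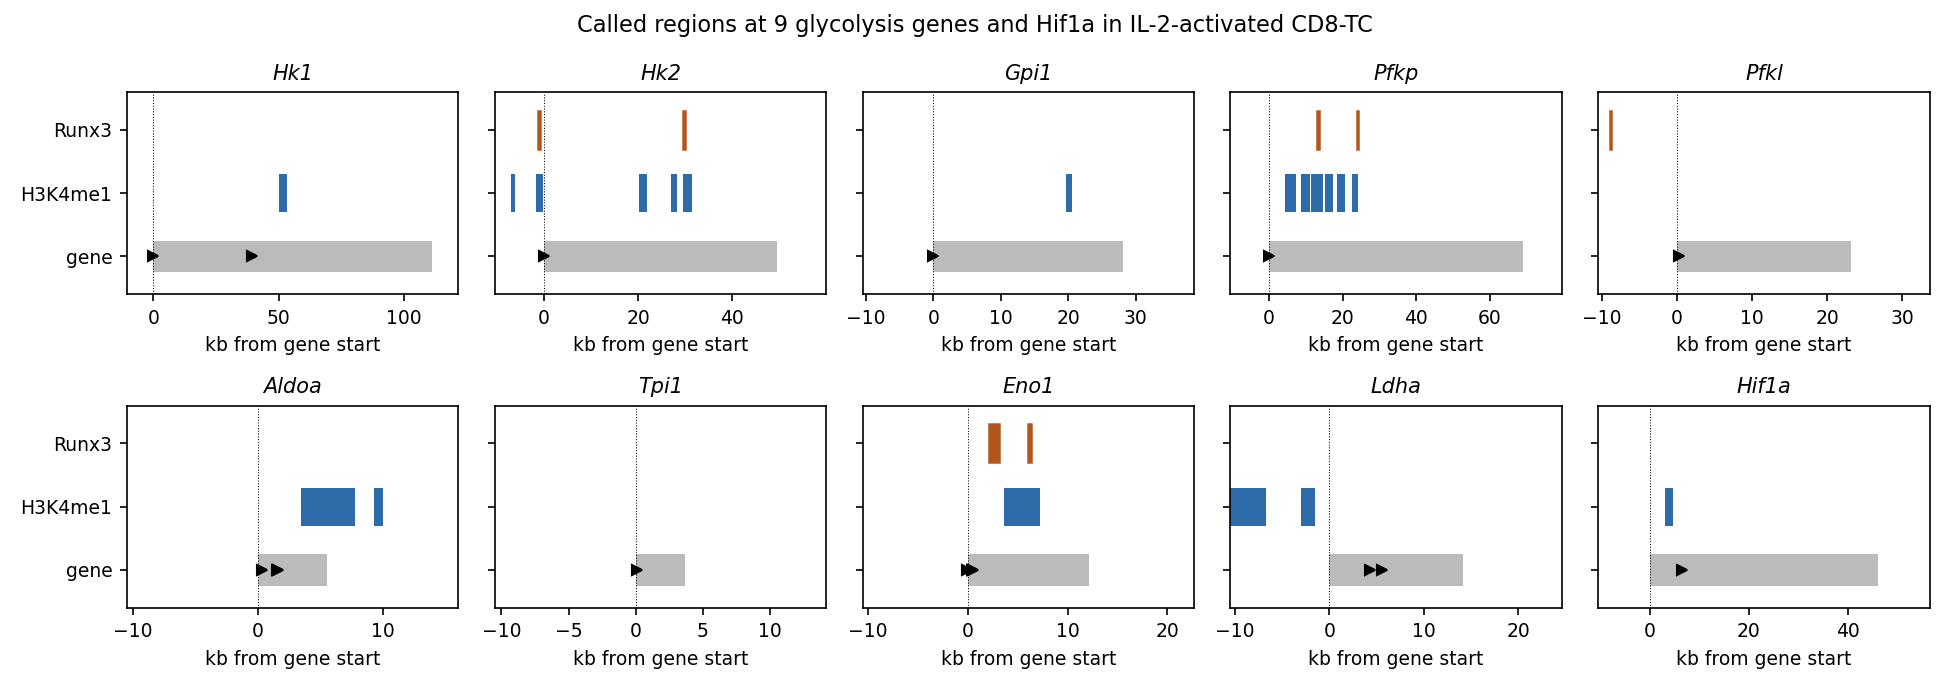
Map of the 10 loci. The x axis gives the distance in kb from the start of the annotated gene in the direction of transcription, the grey bar is the gene body, black arrowheads are RefSeq starts, blue bars are H3K4me1-marked regions and brown bars are Runx3-bound regions. Each panel ends about 10 kb beyond the gene on both sides. Runx3 bars are seen at Hk2, Pfkp, Pfkl and Eno1, and the Tpi1 panel holds the gene alone.

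A longer gene offers a longer window, so the counts are also given by gene length and per length. Whether length accounts for any difference was not tested. The median gene body was 25.7 kb for the 10 genes and 15.4 kb for all protein-coding genes. Of the 6 genes with a body of 20 kb or more, 3 had a Runx3-bound region (35.7% of all genes of that length), and of the 4 shorter genes 1 had (21.2% of all shorter genes). Per length, the 562 kb of windows at the 10 genes held 1.24 Runx3-bound and 3.38 H3K4me1-marked regions per 100 kb. These values were 0.558 and 1.16 over the 1254 Mb of windows of all 22350 protein-coding genes. H3K4me1-marked regions covered 7.41% of the sequence at the 10 genes and 2.17% at all protein-coding genes.

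Of the 7 Runx3-bound regions, 5 shared sequence with an H3K4me1-marked region (71.4%, interval 35.9 to 91.8%), compared to 57.3% of the whole Runx3 list, which lies inside that interval. Conversely, 5 of the 19 H3K4me1-marked regions held a Runx3-bound region (26.3%, interval 11.8 to 48.8%), compared to 29.2% of the whole H3K4me1 list. The 7 regions were 260 to 1040 bp wide, with a median of 407 bp compared to 521 bp for the list. The 19 H3K4me1-marked regions were 703 to 4371 bp wide, with a median of 1825 bp compared to 1592 bp.

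**Figure D2:**
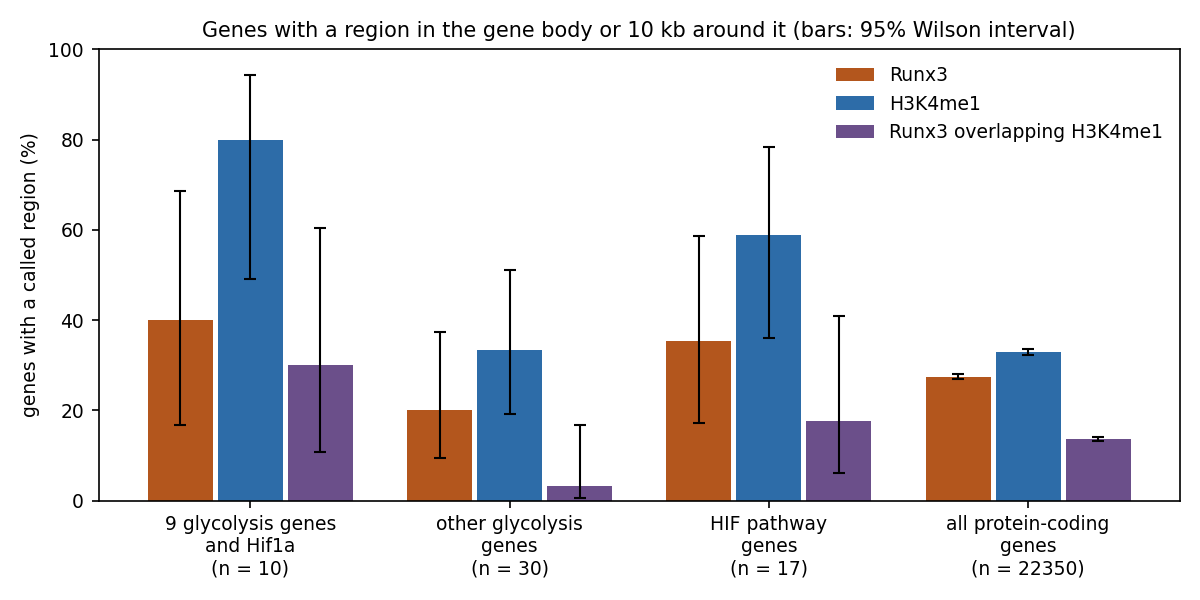
Share of genes (y axis, %) with a Runx3-bound region (brown), with an H3K4me1-marked region (blue) and with a Runx3-bound region that overlaps H3K4me1 (purple), for the 9 glycolysis genes and Hif1a, 30 other glycolysis genes, 17 HIF pathway genes and all protein-coding genes. Bars are shares and error bars are 95% Wilson intervals. The interval for H3K4me1 at the 9 glycolysis genes and Hif1a (49.0 to 94.3%) lies above the share of all protein-coding genes (32.9%), while the Runx3 interval (16.8 to 68.7%) holds the share of all (27.5%). The genes were picked with results of these lists known. The intervals do not cover that choice, and no difference was tested.

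The hexokinases differed from each other in both lists. Hk2, the hexokinase that is induced in growing and activated cells, lies on the minus strand of chromosome 6 (82675019 to 82724448, 49.4 kb). Its first Runx3-bound region (chr6:82725271-82725677, 407 bp) was intergenic and centred 1.03 kb upstream of the start, with its nearer edge at 0.823 kb. It lay wholly inside an H3K4me1-marked region (chr6:82724757-82726134) whose edge was 0.309 kb from the start. The region held 1 RUNX motif, TGTGGT, 118 bp from its centre and 7 bp from an ETS motif (either AGGAAA or the variant AGGAAG, or the same word with C in the first place, CGGAAA or the variant CGGAAG), the site of the ETS family of transcription factors. The second region (chr6:82694435-82694947, 513 bp) was centred 29.8 kb downstream of the start, over intron 4 and a part of coding exon 4. Of its bases, 80.9% were shared with an H3K4me1-marked region (chr6:82693087-82694849), and it held 3 RUNX motifs, of which a pair with a gap of 24 bp lay near the centre.

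Hk2 was also the only one of the 10 genes with a region within 1 kb of its annotated gene start or a RefSeq start, in either list, starts of other annotated transcripts aside. Over all protein-coding genes, 9.43% had Runx3 and 8.26% had H3K4me1 within 1 kb of the gene start. The other H3K4me1-marked regions of Hk2 lay 6.66 kb upstream (chr6:82730668-82731545), in intron 2 (chr6:82702581-82704209) and in intron 3 (chr6:82696303-82697520), and these held no Runx3-bound region. As many as 5 H3K4me1-marked regions were found at 4.31% of protein-coding genes.

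Hk1, the widely expressed hexokinase, had no Runx3-bound region, and the nearest in the list was 128 kb from the gene body (chromosome 10, 61731603 to 61842656, minus strand, 111 kb). It had 1 H3K4me1-marked region of 3507 bp (chr10:61789202-61792708), 12.2 kb downstream of the nearer of its 2 RefSeq starts. This region held the start of the annotated transcript Hk1-017. With the longest window of the 10 genes, Hk1 had an H3K4me1 cover of 2.68%, compared to 9.89% at Hk2. Gpi1, which interconverts glucose 6-phosphate and fructose 6-phosphate, also had 1 H3K4me1-marked region (chr7:34994734-34995622, 889 bp), in intron 9 and over the start of the transcript Gpi1-002, and the nearest Runx3-bound region was 83.1 kb from the gene body.

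The phosphofructokinase genes also differed from each other in both lists. Pfkp, the platelet-type subunit (chromosome 13, 6579014 to 6648023, minus strand, 69.0 kb), had 6 H3K4me1-marked regions in its introns 1 to 3, a number reached by 3.04% of protein-coding genes. They spanned 19.9 kb, of which they covered 76.1%, with gaps of 85 to 1674 bp between neighbours, and the first began 4.31 kb downstream of the RefSeq start. Both Runx3-bound regions of Pfkp lay wholly inside this group. The first (chr13:6634360-6634929, 570 bp, intron 2, 13.4 kb downstream) held 4 RUNX motifs and 3 ETS motifs, with 11 bp between the closest RUNX and ETS motifs, and its H3K4me1-marked region (chr13:6633294-6636784) also held the start of the transcript Pfkp-006. The second (chr13:6623916-6624194, 279 bp, intron 3, 24.0 kb downstream) was among the narrow ones, since 96.9% of the list was at least as wide. Its 2 RUNX motifs, on the same strand with a gap of 6 bp, lay 6.5 and 18.5 bp from its centre.

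Pfkl, the liver-type subunit, had no H3K4me1-marked region in its window, and the nearest was 11.9 kb from the gene body (chromosome 10, 77449692 to 77472828, minus strand). Its single Runx3-bound region (chr10:77481576-77481835, 260 bp) was intergenic, 9.15 kb upstream of the RefSeq start and 43794 bp from the nearest H3K4me1-marked region. It was the only one of the 7 without a RUNX motif, whereas 92.6% of the whole list held one. It lay 8.75 kb from the gene body, so it was counted by the 10 kb flank and not by a flank of 5 kb.

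**Figure D3:**
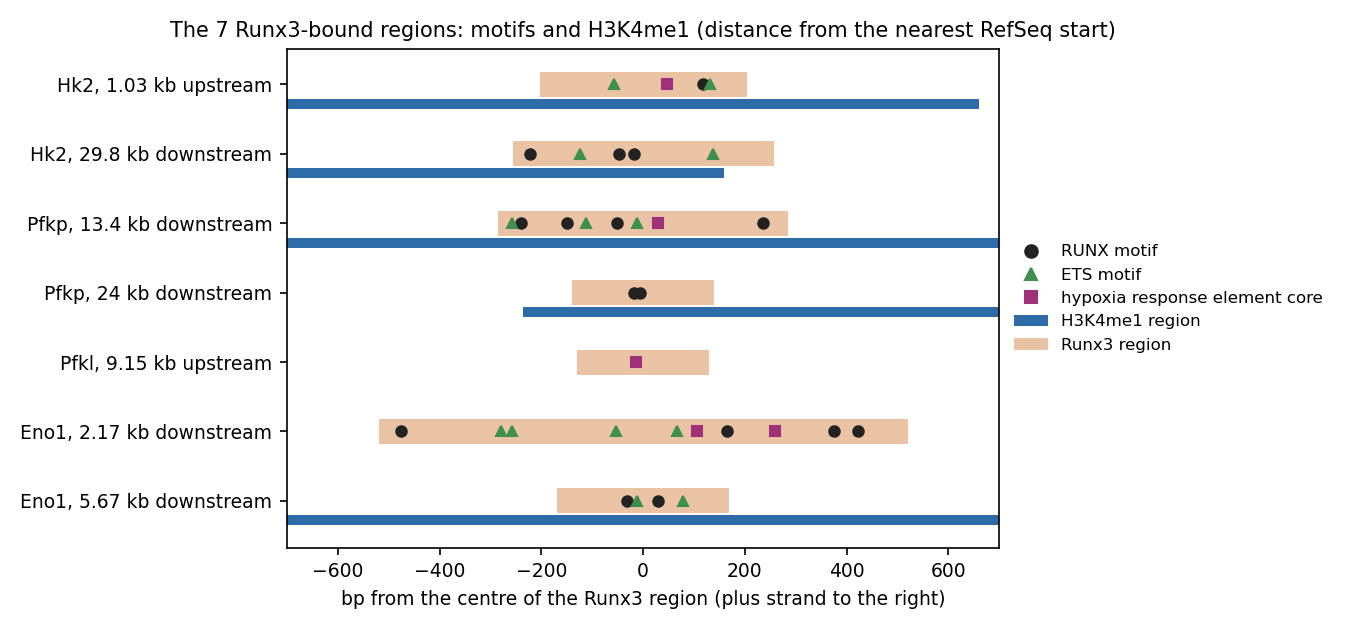
The 7 Runx3-bound regions (light brown bars), aligned at their centres, with the RUNX, ETS and hypoxia response element words found on either strand and the H3K4me1-marked region that overlaps each (blue). The x axis is the distance in bp from the centre, with longer H3K4me1-marked regions cut at the frame, and the y labels give the distance of each centre from the nearest RefSeq start. The second Pfkp region has its RUNX pair at the centre, the wide Eno1 region has its 4 RUNX motifs at least 164 bp away from the centre, and the Pfkl region has none.

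Aldoa, the aldolase that splits fructose 1,6-bisphosphate, had the highest H3K4me1 cover of the 10 genes (19.9% of its window, a value reached by 2.82% of protein-coding genes). This came mainly from 1 region of 4371 bp (chr7:133936498-133940868), the widest of the 19, which covered exons 4 to 10 and reached 2.25 kb past the end of the 5.52 kb gene. A second region of 703 bp (chr7:133934274-133934976) lay in an intron of the neighbouring gene Ppp4c, which codes for a phosphatase subunit. The start of Ppp4c (chr7:133935985, minus strand) lay inside the Aldoa window, between these regions. Which of the genes the cover belongs to was not tested. No Runx3-bound region was counted at Aldoa, but the nearest was 14.8 kb from the gene body and entered the count with a flank of 20 kb. Tpi1, which interconverts the triose phosphates, was without any region, and the nearest Runx3-bound and H3K4me1-marked regions were 71.6 and 58.7 kb away from the body.

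Eno1, which makes phosphoenolpyruvate, had the highest density of Runx3-bound regions, with 2 in a window of 32.2 kb (6.22 per 100 kb). The first (chr4:149612985-149614024) was 1040 bp wide, a width reached by 1.71% of the list. It was centred 2.17 kb downstream of the nearest of the 3 RefSeq starts and covered exon 2, in which the coding sequence begins. It did not overlap H3K4me1 but ended 436 bp before the H3K4me1-marked region of the gene (chr4:149614461-149618075, 3615 bp). Its 4 RUNX motifs all lay outside the central 200 bp. The second region (chr4:149616837-149617173, 337 bp, intron 4, 5.67 kb downstream) lay inside that H3K4me1-marked region and held 2 RUNX motifs with an ETS motif between them, 15 bp from the closer one. The same H3K4me1-marked region held the start of the transcript Eno1-002.

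Ldha, the lactate dehydrogenase A subunit, had its 2 H3K4me1-marked regions upstream of the gene and no Runx3-bound region within 45.4 kb of the body. The regions were centred 6.64 kb (chr7:54093787-54095287, 1501 bp) and 13.2 kb (chr7:54085769-54090106, 4338 bp) upstream of the nearest RefSeq start. From the annotated gene start, which lies farther upstream, these distances were 2.31 and 8.91 kb. The farther one covered the predicted gene Gm5331. Their cover was 13.9% of the window.

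Hif1a had 1 H3K4me1-marked region of 1804 bp (chr12:75005279-75007082) and no Runx3-bound region, the nearest being 58.5 kb from the gene body (chromosome 12, 75002362 to 75048517, plus strand). The position of this region depends on the transcript. It was in the first intron of Hif1a-003, which begins at the annotated gene start, and 2.67 kb upstream of the RefSeq start. Cover at Hif1a was 2.73% of the window.

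Across the 10 genes the H3K4me1 cover ran in the order Aldoa (19.9%), Pfkp (17.0%), Ldha (13.9%), Eno1 (11.2%), Hk2 (9.89%), Hif1a (2.73%), Hk1 (2.68%) and Gpi1 (1.85%), with Pfkl and Tpi1 at 0%. The median was 6.31%, compared to 0% for the median protein-coding gene. Of the 5 genes with the highest cover, Aldoa and Ldha had no Runx3-bound region. With 1 list per antibody, the spread of these values between cultures is unknown, so no order between neighbours was tested.

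**Figure D4:**
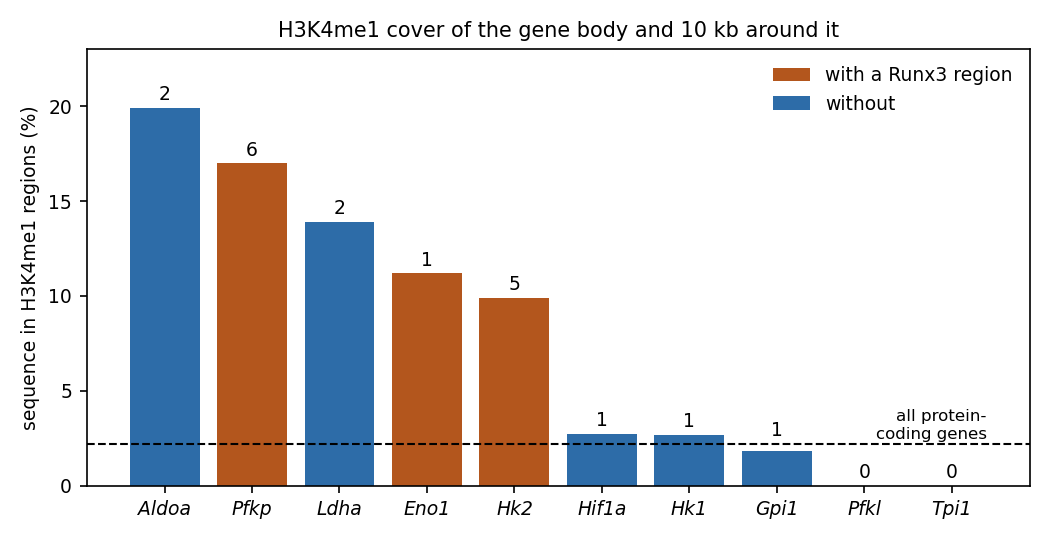
Share of the sequence of each gene window (gene body and 10 kb on each side, y axis, %) that lay in H3K4me1-marked regions. Brown bars are genes with a Runx3-bound region and blue bars genes without, the number above each bar counts the H3K4me1-marked regions, and the dashed line is the share over the windows of all protein-coding genes (2.17%). Aldoa, Pfkp, Ldha, Eno1 and Hk2 lie well above the line.

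The RefSeq starts were also examined on their own. The 16 RefSeq starts of the 10 genes were placed on mm9 by an exact and single match of the RefSeq promoter windows (250 bases before to 50 after the start, GRCm38.p6 table). Of these, 0 lay inside an H3K4me1-marked region, and 1, that of Hk2, was within 1 kb of one. The same single start was within 1 kb of a Runx3-bound region. By the annotated gene start, 1 of the 10 genes had each kind of region within 1 kb. This is near the share of all protein-coding genes, 9.43% for Runx3 and 8.26% for H3K4me1. The shares over all RefSeq starts were not computed.

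In the promoter windows, the RUNX motif was found at 6 of the 10 genes, in 8 of 16 windows, compared to 46.3% of the 21263 windows of all protein-coding RefSeq genes. The core of the hypoxia response element, ACGTG or GCGTG, was found at 8 of the 10 genes, in 12 of 16 windows, compared to 49.3% of all windows. Gpi1 and Tpi1 had no such word in their windows. A window of Ldha held 7 of them, the most among the 10 genes, and one of Hk1 held 5. ACGTG is also part of the E-box CACGTG, which was found in windows of Ldha and Hif1a and in 7.84% of all windows. These are matches of short words and were not tested as binding sites. The shares of all are per window, and the share per gene over all genes was not computed. Some windows of Aldoa and of Eno1 overlap each other, so the 16 windows are not independent.

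Motifs in the 7 Runx3-bound regions were counted in the same way. A RUNX motif was found in 6 of 7 regions (92.6% of the whole list) and in the central 200 bp of 4 of 7 (78.8%). The 16 motifs gave 4.70 per kb, compared to 4.28 per kb over the list. TGTGGT was found in 6 of 7 regions (69.6%), TGTGGC in 3 (45.7%), TGCGGT in 3 (20.8%) and TGCGGC in 0 (16.3%). ETS motifs were found in 5 of 7 (88.9%), and the Pfkp region in intron 3 and the Pfkl region lacked them. The AP-1 motif (TGACTCA or TGAGTCA) was found in 0 of 7 (13.5%), and the hypoxia response element core in 4 of 7 (54.0%), namely upstream of Hk2 and Pfkl, in intron 2 of Pfkp and in the wide Eno1 region. With 7 regions, none of these shares was set apart from the list.

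Other genes of the pathway were described from a fixed list of 30. Runx3-bound regions were found at 6 of the 30 (20%, interval 9.51 to 37.3%), H3K4me1 at 10 of the 30 (33.3%, interval 19.2 to 51.2%), and a Runx3-bound region overlapping H3K4me1 at 1 (3.33%, interval 0.591 to 16.7%). The last was Adpgk, the ADP-dependent glucokinase, with a region in an intron (chr9:59156166-59156627) 17.0 kb downstream of its start. Pkm, a pyruvate kinase gene (Pkm2 in the annotation), had a Runx3-bound region of 692 bp over its start (chr9:59503808-59504499, centre 0.230 kb upstream, 2 RUNX motifs) that did not overlap H3K4me1. At Pgam1, a phosphoglycerate mutase, the region was intergenic, 8.74 kb upstream of the start. Some of these regions lay at a neighbouring gene. The region counted at Pfkm, the muscle-type phosphofructokinase, lay in UTR sequence of Senp1 as well as in an intron of Pfkm, and the nearer one of 2 at Eno3, the muscle enolase, lay in an intron of Pfn1. At 18 of the 30 genes neither list had a region.

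Partners, regulators and known targets of HIF-1α were described from a list of 17. Runx3-bound regions were found at 6 of the 17 (35.3%, interval 17.3 to 58.7%), H3K4me1 at 10 of the 17 (58.8%, interval 36.0 to 78.4%), and a Runx3-bound region overlapping H3K4me1 at 3 (17.6%, interval 6.19 to 41.0%). Arnt, the partner of HIF-1α, had a region of 482 bp over its start (chr3:95238165-95238646) with no RUNX motif and no H3K4me1. Arnt2, a related partner, had 3 regions, all overlapping H3K4me1, of which the nearest to the start (chr7:91534798-91535666, 869 bp, intron) held 5 RUNX motifs. Hif1an, an asparagine hydroxylase that inhibits HIF-1α, had an intergenic region (chr19:44652501-44653000) 15.4 kb downstream of its start that overlapped H3K4me1. Cited2, which competes with HIF-1α for a coactivator, had a region over its coding exon (chr10:17443904-17444592). The collagen prolyl hydroxylase genes P4ha1 and P4ha2 had 2 and 1 regions. The nearer one at P4ha1 lay over its start (chr10:58785728-58786255), and that at P4ha2 was in an intron. Intervals of both lists held the Runx3 share of all protein-coding genes, 27.5%. The H3K4me1 share of all, 32.9%, lay inside the interval of the 30 other glycolysis genes. It lay below that of the 17 HIF pathway genes, as it did for the 10 genes. These lists were also chosen with earlier results known, and no difference was tested.

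The labelled cell type was checked with H3K4me1 at marker genes, which cannot count cells. H3K4me1-marked regions were found at 6 of 6 T cell genes (Cd3e, Cd3d, Cd3g, Cd5, Lck and Cd2), at Cd8a and Cd8b1, and at the CD4 T cell genes Cd4 and Zbtb7b. They were also found at the B cell genes Cd79a and Pax5 and not at Ms4a1 and Cd79b, and at 2 of 5 myeloid and dendritic cell genes (Itgam and Itgax), 1 of 2 NK cell genes (Klrb1c) and 0 of 2 hepatocyte genes. Among all protein-coding genes, 32.9% had an H3K4me1-marked region in the same window. The part of other cell types in the regions described here was not tested.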

How the data were processed

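ChIP-seq libraries of IL-2-activated CD8-TC were made with anti-Runx3 antibody (2), anti-H3K4me1 antibody (1 in the labels, although the protocol speaks of repeats for both) and NIS (2). The authors used ELAND to place reads on mm9, discarded reads with more than a single placement and pooled the repeats. MACS then compared each pool with the pooled NIS reads after the bigger set had been scaled down. The deposited values were region start and end positions on mm9, with 0 columns of scores. Pooling hides the spread between repeats, scaling limits the number of regions found, and repeated sequence cannot be called from unique reads. Read depth was not analysed here.

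Sequence and gene models were NCBIM37 (mm9) and GENCODE vM1, and 0 of 28127 regions fell outside the chromosomes. Positions count from 1. A region was counted at a gene when it shared at least 1 bp with the gene body and 10 kb on each side. Promoter windows were from RefSeq (GRCm38.p6 table), and all 10 genes matched. Intron and exon numbers are those of the protein-coding transcript with the most exonic bases that holds the region. The genes and lists were chosen with earlier results of these data known. Named were the 10 genes with every region, the other pathway genes with a Runx3-bound region, and neighbours at a region. Some genes of these lists are not reported here. Distances from RefSeq starts and motifs in RefSeq promoters were added after the data were examined. Functions were tested on simulated data. Python 3.11.15, NumPy 2.4.6, SciPy 1.17.1 and matplotlib 3.10.9 were used. Alternatives were other windows, gene models, overlap rules, merged regions, wide regions only and the central 200 bp for motifs.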

Additional observations from a re-analysis of the deposited data

How the results depend on the processing

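Of 96 alternative values for 10 results, 65 stayed within 1.5 times of the reported count or within the interval of the reported percentage, and 31 moved. With a flank of 20 kb, 11 Runx3-bound regions were counted, of which 10 held a RUNX motif. With a flank of 50 kb, these were 15 and 14, with 9 overlapping H3K4me1, 33 H3K4me1-marked regions, and Runx3 at 17 other glycolysis and 11 HIF pathway genes. Without a flank, Runx3 was found at 3 other glycolysis genes. With only regions at least as wide as the median of their list, 2 Runx3-bound regions remained at 2 genes (Pfkp and Eno1), 2 with a RUNX motif and 1 overlapping H3K4me1, and Runx3 was found at 3 HIF pathway genes. Within 10 kb of the gene start alone there were 4 Runx3-bound regions (3 with a RUNX motif, 2 overlapping H3K4me1) and 10 H3K4me1-marked regions. The percentage of protein-coding genes with Runx3 and with H3K4me1 was 18.1 and 21.1 without a flank, 23.5 and 28.6 with 5 kb, 34.2 and 39.4 with 20 kb, 47.9 and 52.3 with 50 kb, 16.9 and 20.3 with wide regions, and 18.1 and 22.5 around the gene start. Counting by the centre of the region gave 32.2 for H3K4me1. These moves follow from the wider or narrower windows and the smaller lists. Pfkl had no Runx3-bound region without a flank, with a flank of 5 kb or among wide regions, Hk2 had none among wide regions and Pfkp none around the gene start, while Eno1 had a Runx3-bound region under all alternatives run.

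No paired analysis was possible because peaks had been called on joined reads, and for the same reason leaving out a replicate was not possible. The lists give called regions of unknown depth, and signal below the calling threshold was not analysed here.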

Other observations

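The Pfkl region, the one without a RUNX motif, was searched for the consensus of the insulator protein CTCF after its sequence was seen. The motif was present 56 bp from the centre of the region, and the other 6 regions had none. It was found in 146 of the 9135 Runx3-bound regions (1.60%, Wilson interval 1.36 to 1.88%). Among the 678 regions without a RUNX motif it was found in 19 (2.80%, interval 1.80 to 4.34%), and among the 8457 with one in 127 (1.5%, interval 1.26 to 1.78%). The Pfkl region, from which the search arose, is itself among the 19. These shares were not tested against each other, and binding of CTCF was not measured.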
